A study of Mus musculus with 3 samples.

Results

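Among the CTCFL peaks of induced embryonic stem (ES) cells, 585 of 7436 (7.87%, 7.28 to 8.50%) lay in an intron close to a transcription start site. A peak belonged to this set when its center, the midpoint of its interval, was inside a protein-coding transcript but in no annotated exon, at most 10 kb from the nearest protein-coding start site, outside the interval from 2 kb upstream to 1 kb downstream of any start site, and over 1 kb from protein-coding transcript ends. The rule used positions only, on the mm9 build with the GENCODE vM1 annotation. A bracket after a share gives its 95% Wilson interval, which accounts for counting error alone.

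The peaks came from a single ChIP-sequencing library. Mouse ES cells with rtTA at the ROSA26 locus and a doxycycline-responsive transgene for V5- and GFP-tagged mouse CTCFL were grown in LIF medium and given doxycycline for 3 days, GFP-positive cells were collected by sorting, and chromatin was taken down with an antibody against V5. A library from the same kind of cells without doxycycline and without sorting, made with the same antibody, and a library made with an antibody against CTCF complete the series, with 1 library per condition. The peaks therefore describe CTCFL made from a transgene in ES cells and not the protein at its natural level in germ cells. The deposited peak list gives a start and an end for each peak without a height or a read number, so peaks were not ranked by reads, and replicate error could not be estimated. The list is longer than the set of CTCFL sites that the study describes, and why is not given in the sources used here. The other 2 libraries were not analysed here.

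CTCFL, also called BORIS, is a paralog of CTCF that is normally restricted to male germ cells. Both proteins bind DNA through a very similar array of zinc fingers and recognize a related GC-rich consensus. Introns near the start of a gene often hold alternative promoters and enhancers of the same gene, which is why binding there is treated apart from binding at the start itself and from binding deep in long introns.

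The sequences below show how the consensus sits in these peaks. The consensus read from the motif logo of the study, CCNNNAGGNGGCGC, has 10 fixed and 4 free positions, which were counted from 1 at the 5′ end, and it was searched on both strands. The first sequence is the part of the Stra8 peak with the densest run of matches. Stra8 is induced by retinoic acid and is required for entry into meiosis. The 300 bases hold 7 matches in capitals, each of which carried the substitution G11T.
Stra8 (chr6:34872034-34872333, minus strand): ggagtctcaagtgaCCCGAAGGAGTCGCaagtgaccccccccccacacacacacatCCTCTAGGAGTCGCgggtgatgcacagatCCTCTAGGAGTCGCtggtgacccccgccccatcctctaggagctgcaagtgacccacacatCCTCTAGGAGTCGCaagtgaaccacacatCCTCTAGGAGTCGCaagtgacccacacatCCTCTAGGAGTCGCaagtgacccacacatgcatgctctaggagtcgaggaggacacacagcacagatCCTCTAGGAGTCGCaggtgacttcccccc

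The next group shows peaks whose best match had no mismatch, in capitals with 25 bases to either side. Rara encodes a retinoic acid receptor, Slc22a18 an imprinted transporter, Twf2 an actin-binding protein, Kcnn1 a potassium channel, Pink1 a mitochondrial kinase and Cplx2 a regulator of synaptic vesicle release.
Rara (chr11:98815732-98815795, plus strand): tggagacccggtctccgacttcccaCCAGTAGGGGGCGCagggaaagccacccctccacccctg
Slc22a18 (chr7:150666580-150666643, plus strand): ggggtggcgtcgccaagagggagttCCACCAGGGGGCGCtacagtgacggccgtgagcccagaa
Twf2 (chr9:106114435-106114498, minus strand): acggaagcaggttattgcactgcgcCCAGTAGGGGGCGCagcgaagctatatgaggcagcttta
Kcnn1 (chr8:73368584-73368647, plus strand): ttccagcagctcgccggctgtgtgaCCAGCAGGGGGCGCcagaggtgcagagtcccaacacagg
Pink1 (chr4:137875576-137875639, plus strand): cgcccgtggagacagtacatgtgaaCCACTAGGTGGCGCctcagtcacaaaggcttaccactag
Csrnp1 (chr9:119883155-119883218, plus strand): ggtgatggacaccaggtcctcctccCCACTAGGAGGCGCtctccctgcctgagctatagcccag
Cplx2 (chr13:54474289-54474352, minus strand): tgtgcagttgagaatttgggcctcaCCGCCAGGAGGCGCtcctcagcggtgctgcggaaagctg

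The best matches of the following peaks differed at 1 fixed position. The substitutions were C12A at Spry2, a feedback inhibitor of receptor tyrosine kinases, C2A at Lifr, the receptor for LIF, G8T at Piwil1, a piRNA-binding protein of male germ cells, and C12G at Peg3, an imprinted zinc finger gene. They were G11T at Ehmt2, a histone H3 lysine methyltransferase, and G10A at Cyp26c1, an enzyme that degrades retinoic acid.
Spry2 (chr14:106294378-106294441, plus strand): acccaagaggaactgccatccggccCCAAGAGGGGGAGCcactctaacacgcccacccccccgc
Lifr (chr15:7082938-7083001, plus strand): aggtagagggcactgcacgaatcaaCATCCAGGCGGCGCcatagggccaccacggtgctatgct
Piwil1 (chr5:129245869-129245932, plus strand): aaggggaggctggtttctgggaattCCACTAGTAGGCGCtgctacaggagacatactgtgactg
Peg3 (chr7:6680154-6680217, minus strand): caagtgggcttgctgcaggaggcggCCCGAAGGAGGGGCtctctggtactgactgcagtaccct
Ehmt2 (chr17:35049188-35049251, minus strand): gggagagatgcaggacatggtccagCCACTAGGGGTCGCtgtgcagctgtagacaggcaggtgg
Cyp26c1 (chr19:37761571-37761634, minus strand): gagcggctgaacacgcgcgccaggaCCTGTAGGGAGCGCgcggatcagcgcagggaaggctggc

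The last pair shows peaks in which no window came closer than 3 mismatches. At Gal3st1, which makes the sulfated glycolipids of germ cells and myelin, these were C1G, G13A and C14G. At Sp110, a nuclear body protein, they were G10T, C12T and C14G.
Gal3st1 (chr11:3892454-3892517, minus strand): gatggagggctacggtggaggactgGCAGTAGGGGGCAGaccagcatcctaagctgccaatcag
Sp110 (chr1:87488802-87488865, minus strand): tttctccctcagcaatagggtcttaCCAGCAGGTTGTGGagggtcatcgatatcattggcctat

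By the rule every center lay inside its host gene, so the peaks were divided by which start was nearest. It was a start of the host gene with the peak downstream of it in 457 of 585 peaks (78.1%, 74.6 to 81.3%), and a start inside the host gene with the peak upstream of it in 78 (13.3%, 10.8 to 16.3%). Of the 457, 212 (46.4%, 41.9 to 51%) had the outermost annotated start of the host as the nearest one. Distances given for single genes are to the nearest annotated start, and for some listed genes the distance from the outermost start is added. In the other 50 peaks (8.55%, 6.54 to 11.1%) the nearest start belonged to another gene. The consensus at up to 1 mismatch was present in 40.3% (35.9 to 44.8%), 30.8% (21.6 to 41.7%) and 46% (33 to 59.6%) of these groups, intervals that overlap.

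Intronic sequence close to start sites held more peaks per Mb than introns farther away. The territory that meets the same positional rule spans 172.8 Mb and held 3.38 peaks per Mb. Introns over 10 kb from a start site span 646.1 Mb and held 1170 peaks, here called deep intronic peaks, or 1.81 per Mb. The ratio was 1.87 (95% interval 1.69 to 2.07, exact binomial test of 2 counts given their territories, two-sided, p = 1.81e-32). Against deep introns up to 20 kb from a start site alone, a comparison added after seeing the data, the ratio fell to 1.15 (1.01 to 1.31, same exact test, p = 0.0378). The promoter interval, which the rule excludes, held 2344 peaks at 27.2 per Mb.

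The density was highest just beyond the promoter interval. Between 1 and 2 kb from a start it was 5.16 peaks per Mb (4.13 to 6.36, exact Poisson interval, 87 peaks), all of them downstream since the rule leaves out the first 2 kb upstream. From 2 to 3 kb the density was 3.96 per Mb (3.19 to 4.85, 92 peaks). Between 3 and 10 kb it ranged from 2.58 to 3.58 per Mb, and the intervals of these 7 bins overlap. From 10 to 20 kb the density was 2.95 per Mb (2.66 to 3.26), a value within the range of the bins from 3 to 10 kb. It was 2.06 per Mb from 20 to 50 kb, 1.41 from 50 to 100 kb and 0.982 beyond that.

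**Figure D1:**
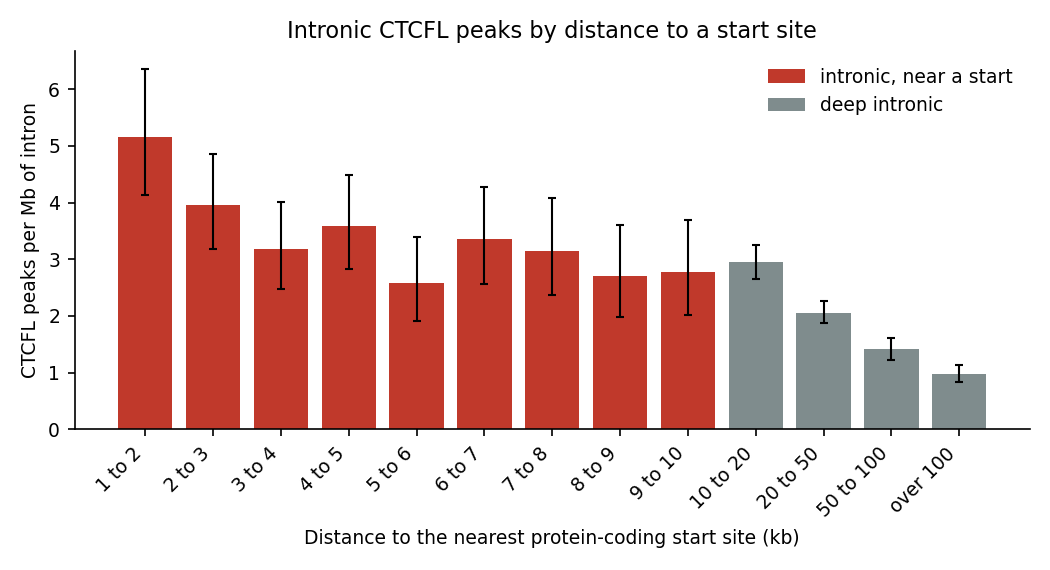
Peaks per Mb of intronic sequence (vertical axis) in bins of distance from the peak center to the nearest protein-coding start site in kb (horizontal axis), with exact 95% Poisson intervals as error bars. Red bars are the peaks near a start and gray bars the deep intronic peaks. The first bar, from 1 to 2 kb, stands at 5.16 per Mb and the last, over 100 kb, at 0.982.

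Values at the limits of the rule show what it separated. The members farthest from a start lay in Cdkl4 at 9949 bp downstream, in Afp at 9876 bp downstream and in Tmem200a at -9880 bp from the start of Gm9767, a minus sign marking upstream positions, with 2, 3 and 2 mismatches in their best matches. Just beyond the limit lay peaks in Pde4d, Gm2382 and Nek3, at -10011, 10013 and -10020 bp, with 3, 3 and 4 mismatches. The members closest to a start on the downstream side lay in Mlxipl, Epor and Fam179a at 1004, 1005 and 1007 bp, while peaks in introns of Baz2a, Samd1 and Gm572 at 998, 993 and 985 bp counted as promoter peaks.

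First introns held 313 of the 585 peaks (53.5%, 49.5 to 57.5%). The first intron of any protein-coding transcript counted here, also that of a gene other than the host. Intron numbers given for single genes are instead those of the covering host transcript with the nearest start, so they can differ. Since the rule favors sequence near starts, 56.4% of its territory was first intron too. The density was 3.21 peaks per Mb (2.87 to 3.59) in first introns and 3.61 (3.19 to 4.06) in later ones. The introns had a median length of 7231 bp, and the median distance from a peak center to the nearest exon edge was 1377 bp. For 90 peaks (15.4%, 12.7 to 18.5%) that distance was at most 200 bp. RefSeq starts, searched as the 50 bases around each of 32851 starts, were present in 4 of the 585 peaks (0.684%, 0.266 to 1.74%). These peaks lay in Adamts16, Cacna1i, Fam118a and Rassf8. Promoter peaks held a RefSeq start in 39.3% of cases, but the search also took in starts that the rule used. The rule keeps members outside the promoter interval of every annotated start, so that contrast was built in.

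The peaks were spread over 19 autosomes with different densities, again without a correction for sequence that short reads cannot place uniquely. Chromosomes 8 and 19 held 5.63 (4.17 to 7.45) and 5.58 (3.71 to 8.07) per Mb of the territory, whereas chromosomes 16 and 6 held 1.69 (0.810 to 3.10) and 1.70 (0.969 to 2.75). The X chromosome held 5 peaks, or 0.696 per Mb (0.226 to 1.62). No member was found on the Y chromosome, where the territory was 0.1147 Mb (exact Poisson upper bound 32.2 per Mb).

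The consensus was common in the peaks and rare beside them. A match at up to 1 mismatch was found in 231 of 585 peaks (39.5%, 35.6 to 43.5%), beside 43.9% of all listed peaks. Equally wide windows placed 2 kb away on each side held one in 34 of 1170 cases (2.91%), an odds ratio of 21.8 (Fisher's exact test, two-sided, p = 5.10e-88). The logo came from the study's own CTCFL sites in these cells. An excess in the peaks was therefore built in and is no independent evidence for the consensus. The test also treated both windows of a peak as separate from the peak and from each other. An exact match was present in 68 peaks (11.6%, 9.27 to 14.5%), and 163 more (27.9%, 24.4 to 31.6%) had 1 mismatch. A further 216 peaks (36.9%, 33.1 to 40.9%) had a best match with 2 mismatches, 102 (17.4%) with 3 and 35 (5.98%) with 4.

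The share with a match at up to 1 mismatch was lower than at promoters and slightly higher than in deep introns. Promoter peaks held a match in 53.6% of cases (51.6 to 55.6%), which put the intronic peaks at -14.1 percentage points from them (Fisher's exact test, two-sided, adjusted p = 2.47e-09 after Benjamini-Hochberg over 2 comparisons). Deep intronic peaks held one in 34.4% (31.7 to 37.1%), and the intronic peaks near a start were 5.13 points above that (same exact test, adjusted p = 0.0397). The exact consensus alone was found in 13.8% (12.5 to 15.3%) of promoter and 10.2% (8.57 to 12%) of deep intronic peaks, and neither difference passed the exact test (p = 0.175 and p = 0.367). At up to 2 mismatches the differences were -14.8 and 9.74 points (exact test, adjusted p = 4.41e-20 and adjusted p = 2.64e-05). At that limit 28.4% of the windows beside the intronic peaks also held a match. With positions 8, 13 and 14 free and no mismatch, the form CCNNNAGNNGGCNN, the differences were -1.07 and -1.03 points (exact test, p = 0.677 and p = 0.723), so the contrast depended on the form of the consensus. Width moves with these shares, as described further on, and in the central 200 bp alone the difference from deep introns was 4.19 points (exact test, p = 0.0771). The difference from promoter peaks there was -8.09 points (exact test, adjusted p = 6.42e-04).

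**Figure D2:**
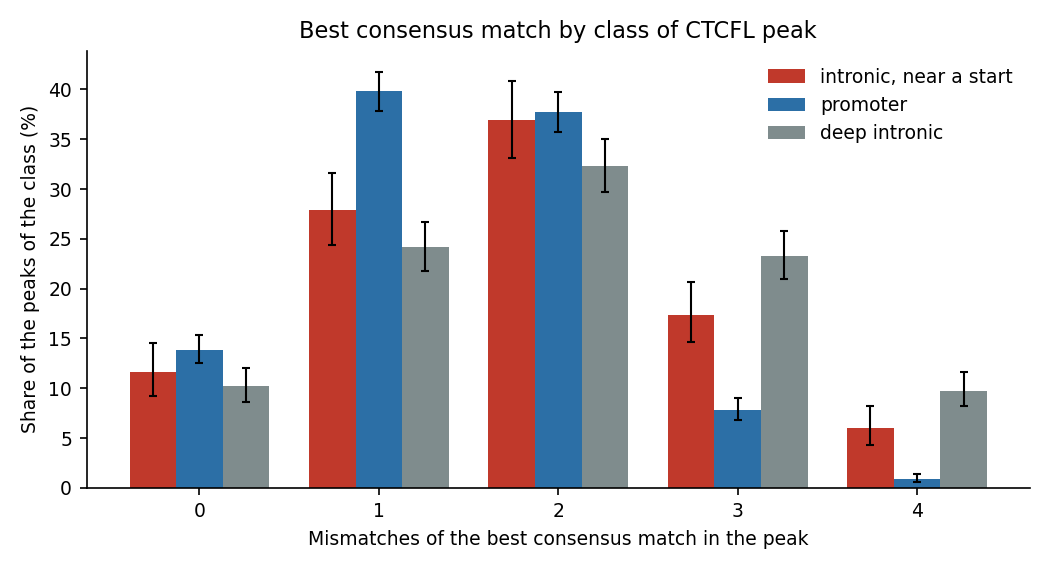
Share of the peaks of each class in % (vertical axis) by the number of mismatches in the best consensus match (horizontal axis), with 95% Wilson intervals. At 1 mismatch the intronic peaks near a start (red, 27.9%) stand below promoter peaks (blue, 39.8%), and at 3 mismatches (17.4%) they stand above promoter peaks (7.85%) and below deep intronic peaks (gray, 23.3%).

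Matches lay near the peak centers. In the 231 peaks with a match at up to 1 mismatch, the best match was at a median of 46.5 bp from the center, and in 202 of them (87.4%, 82.6 to 91.1%) it lay within 100 bp. At Pink1, Csrnp1 and Cplx2 an exact match was within 5 bp of the center, at -3.5, -4.5 and 4.5 bp. Peaks with an exact match had a median width of 504 bp and those with 3 or more mismatches one of 386 bp. At least 2 separate matches were present in 21 peaks (3.59%, 2.36 to 5.43%), against 10.3% (9.16 to 11.6%) of promoter peaks and 1.62% (1.04 to 2.52%) of deep intronic peaks.

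**Figure D3:**
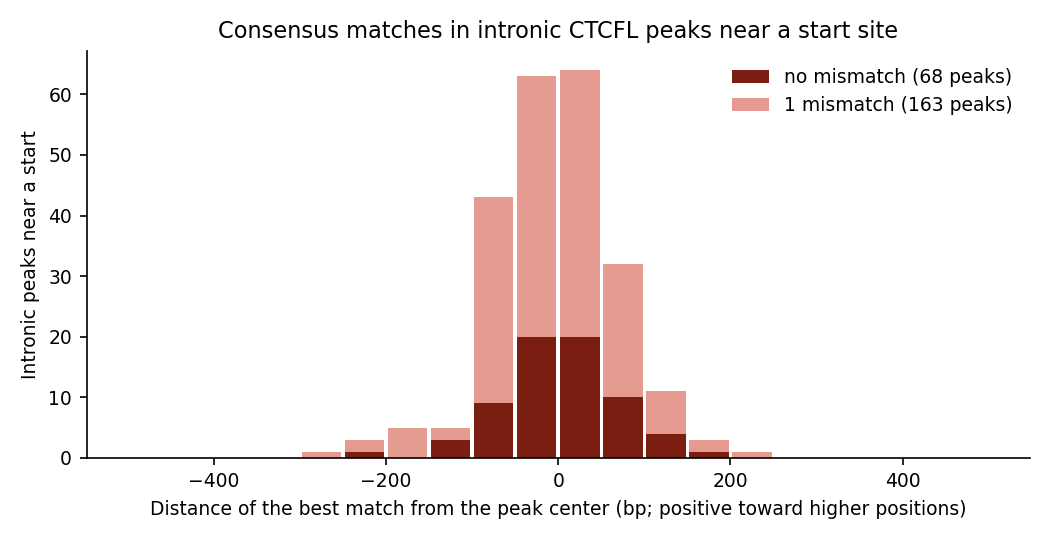
Number of intronic peaks near a start (vertical axis) by the distance in bp from the peak center to the best match (horizontal axis), for the 68 peaks with an exact match (dark) and the 163 with 1 mismatch (light). The 2 tallest bars are those on either side of the center, each with 20 exact matches.

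The Stra8 peak had the most matches, 10 with 1 mismatch each, all on the minus strand opposite to the gene and all with G11T. In 8 of them the 14 bases were identical, CCTCTAGGAGTCGC. Neighboring matches started 29 bp apart in 3 cases and 42 to 184 bp apart in the rest, as in the repeated unit visible in the sequence printed first. The peak was 1159 bp wide, with 57.6% GC and 94.7% of its 36-base windows unique in the genome. Its center lay 1238 bp from the nearest annotated start of Stra8 and 2089 bp from the outermost one, and the center of the nearest other peak was 11732 bp away. Spry2 followed with 3 matches in a peak 749 bp wide, 1641 bp from the start, and the widest of the peaks with 2 matches, the order by which ties were broken, lay in Fes, a tyrosine kinase gene, Tacr2, a tachykinin receptor gene, and Cyp26c1.

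The fixed position that was not met had another distribution than in promoter peaks. In the 163 peaks with exactly 1 mismatch, G8 was changed in 33 (20.2%, 14.8 to 27.1%), 32 times as G8A. C12 and G13 were changed in 30 each (18.4%, 13.2 to 25.1%), most often as C12A (20) and G13A (18). In 932 promoter peaks of the same kind, C12 and G13 were changed in 8.80% (7.14 to 10.8%) and 8.69% (7.05 to 10.7%), and A6 in 17.3% (15.0 to 19.8%). The intronic peaks had a change at A6 in 10 cases (6.13%, 3.37 to 10.9%). Deep intronic peaks were at 13.8%, 19.1% and 10.2% at the same positions. G7 was changed in 0 of 163 intronic peaks near a start (upper Wilson bound 2.30%), in 0 of 283 deep intronic peaks and in 1.82% of promoter peaks. These shares were not tested.

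At the free position 3, A was the commonest base of exact matches in the intronic peaks. It was present in 39 of 69 matches (56.5%, 44.8 to 67.6%), against 104 of 329 (31.6%, 26.8 to 36.8%) in promoter peaks, where G was found in 37.7%. The difference was 24.9 percentage points (Fisher's exact test, adjusted p = 6.48e-04 over the 4 free positions). With the limit at 5 kb from a start it was 17.0 points and no longer passed after adjustment (exact test, unadjusted p = 0.0436). In deep intronic peaks A was found in 52.8% (44.1 to 61.2%), and that difference of 3.77 points did not pass the exact test (adjusted p = 0.872) and changed sign under 2 of the alternative settings. Of 263 matches at up to 1 mismatch, 116 ran along the strand of the host gene (44.1%, 38.2 to 50.1%, exact binomial test against 50%, two-sided, p = 0.0641). The test counted matches and not peaks, so the 10 Stra8 matches, all opposite to the gene, entered as separate trials. With only the match nearest the center of each peak, 107 of 231 ran along the gene (46.3%, same exact test, p = 0.292). Among exact matches, 35 of 69 did (50.7%). The share passed the threshold under 3 of the alternatives, all of which counted every match.

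The peaks were narrower than promoter peaks and wider than deep intronic ones. Their widths ran from 187 to 2783 bp with a median of 447 bp and quartiles of 354 and 565 bp. Promoter peaks had a median of 515 bp, a difference of -68 bp (permutation test of medians, 100000 resamples, two-sided, p = 1e-05, the smallest that these resamples can give). Deep intronic peaks had a median of 410 bp, a difference of 37 bp (same permutation test, p = 2e-05).

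The widest intronic peak, 2783 bp at Sp110, lay in repeated sequence, since 18.9% of its 36-base windows were unique. Of the 585 peaks, 38 (6.50%, 4.77 to 8.79%) had under 90% unique windows, and 6.23% of all listed peaks did. After Sp110 and Stra8 came Lrrc2 (1116 bp), Nutf2 (1038 bp), which encodes a nuclear import factor, Kcnn1 (1018 bp), Prhoxnb (954 bp), Gpc6 (952 bp), a glypican gene, Cux1 (934 bp), a homeobox gene, Fes (920 bp) and Tyw1 (894 bp, a width shared with a peak in Osgin1). In these 8 peaks between 92.4 and 100% of windows were unique. Of the 10 widest peaks, that at Kcnn1 held an exact match, those at Stra8, Lrrc2 and Fes held matches with 1 mismatch, and the other 6 had 2 or 3 mismatches. The peaks in Kcnn1 and Cux1 were nearest to the starts of other genes, Arrdc2 at -5226 bp and Sh2b2 at -8288 bp.

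In base composition the peaks resembled deep intronic peaks more than promoter peaks. The median GC content was 50.6%, against 60.3% at promoters (difference -9.64 points, permutation test of medians, adjusted p = 2e-05) and 49.1% in deep introns (difference 1.52 points, adjusted p = 1.07e-04). The territories themselves had 43.6% GC near a start and 41.9% in deep introns. The ratio of observed to expected CpG dinucleotides had a median of 0.242 in the intronic peaks near a start, 0.702 in promoter peaks (difference -0.460, permutation test, adjusted p = 2e-05) and 0.215 in deep intronic peaks (difference 0.0273, adjusted p = 4.20e-04). Windows 2 kb to either side of the intronic peaks had medians of 48.0% GC and a CpG ratio of 0.217.

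A small group carried CpG-rich sequence. With at least 55% GC and a CpG ratio of at least 0.6, 26 of the 585 peaks qualified (4.44%, 3.05 to 6.43%), against 59% (57 to 61%) of promoter and 1.20% (0.714 to 2.0%) of deep intronic peaks. Among them were peaks in Gpc6 (65.4% GC, ratio 0.706), Cyp26c1 (58.2%, 0.673), Epor (62.2%, 0.637), the erythropoietin receptor gene, Jag1 (58.1%, 0.628), a Notch ligand gene, and Spry2 (58.3%, 0.610). Of the 26, 18 held a consensus match (69.2%, 50 to 83.5%), whereas 213 of the other 559 did (38.1%, 34.2 to 42.2%). The 26 were also wider, with a median of 566 bp against 443 bp, and the consensus itself contains a CpG. What either adds to the contrast was not tested. A RefSeq start was present in 0 of the 26 (upper Wilson bound 12.9%), whose centers the rule keeps away from annotated starts. They were concentrated close to the start, with 14 of 87 peaks between 1 and 2 kb (16.1%, 9.83 to 25.2%), 9 of 237 from 2 to 5 kb (3.8%, 2.01 to 7.06%) and 3 of 261 from 5 to 10 kb (1.15%, 0.392 to 3.32%). The consensus share over the same 3 ranges was 47.1% (37 to 57.5%), 38.8% (32.8 to 45.2%) and 37.5% (31.9 to 43.6%).

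**Figure D4:**
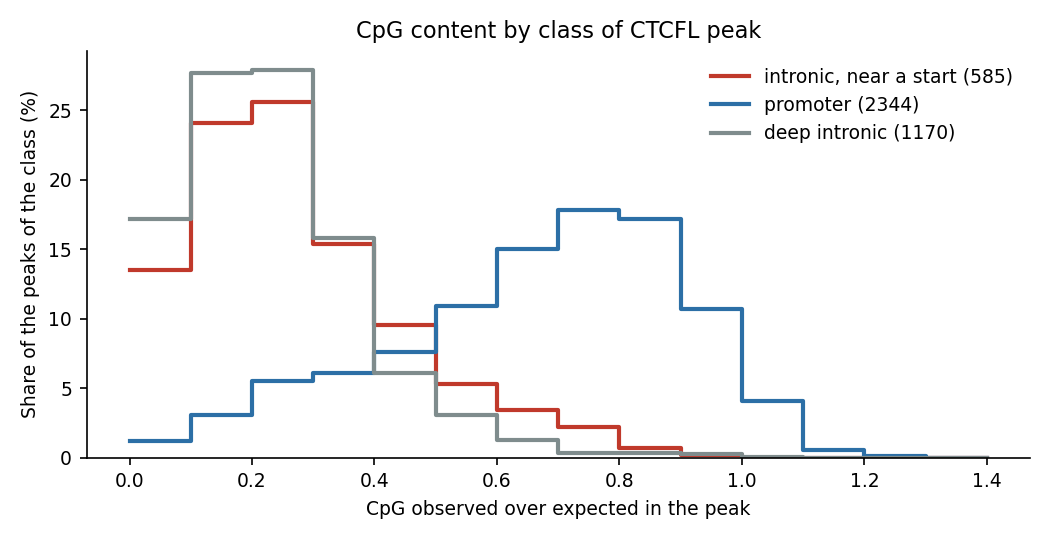
Share of the peaks of each class in % (vertical axis) by the ratio of observed to expected CpG in the peak (horizontal axis, bins of 0.1). The curves of the intronic peaks near a start (red, median 0.242) and deep intronic peaks (gray, median 0.215) peak on the left, and that of promoter peaks (blue, median 0.702) on the right.

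The peaks lay in 562 host genes, 2.53% of 22219 protein-coding genes. Most hosts, 542, had 1 such peak and 18 had 2. Rara had 3, at -4330, 2034 and -5975 bp from the nearest of its starts, with widths of 408, 524 and 466 bp. Their best matches had 1, 2 and 0 mismatches, and the neighboring centers were 8377 and 12692 bp apart. The 4 peaks assigned to Gm20388 lay in the first intron of a very long transcript that runs over other genes on chromosome 8. Their nearest starts were those of Fam38a, Pabpn1l, Cpne7 and Fanca, at distances from -2641 to -8035 bp. Across all members, 122 of 585 (20.9%, 17.8 to 24.3%) had another CTCFL peak within 10 kb, and the median distance to the nearest other peak was 39757 bp.

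A promoter peak was found at 95 of the 562 host genes (16.9%, 14 to 20.2%), and at 11.3% of all protein-coding genes. The hosts of deep intronic peaks had one in 163 of 984 cases (16.6%, 14.4 to 19.0%). Of the hosts on the gene lists described next, Ehmt2, H13, Kdm1a and Rapgef1 had a promoter peak. The others, Stra8, Spry2, Lifr, Piwil1, Gal3st1, Peg3, Slc22a18 and Twf2 among them, had none, and neither had Rara. This goes by peak centers. The study places its Stra8 site in the Stra8 promoter, and it also speaks of binding at the Gal3st1 promoter. The Stra8 peak ran from 659 to 1817 bp downstream of the nearest start, so part of it lay in the promoter interval.

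Of the germ cell and meiosis genes examined, 3 of 53 hosted an intronic peak near a start (5.66%, against 2.53% of all genes), namely Stra8, Gal3st1 and Piwil1. The Piwil1 peak was 608 bp wide and lay in intron 4 at 3841 bp from the start. The Gal3st1 peak was 629 bp wide and lay in intron 1 at 2530 bp from the nearest and 8827 bp from the outermost start. A promoter peak was present at 8 of the 53 genes (15.1%, against 11.3% of all protein-coding genes). These counts are descriptions, since the lists were drawn up with results of these data known. For the lists, every gene with a center in its introns counted as a host, whereas the 2.53% takes 1 host per peak. The center lay in introns of several genes in 9 of 585 peaks (1.54%).

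Signaling genes were hosts in 7 of 70 cases (10%, against 2.53% of all genes). Of the same 70 genes, 12 hosted a deep intronic peak, beside 984 of all 22219 genes at 1 host per peak. On the germ cell, pluripotency, chromatin and imprinted lists, deep intronic peaks had hosts in 0 of 53, 4 of 31, 10 of 60 and 5 of 40 cases. None of these shares was tested. The peak in Jag1, a Notch ligand gene, was 532 bp wide and lay 2276 bp from the start, with 3 mismatches in its best match. The peak in Rbpj, the gene of a DNA-binding factor in Notch signaling, was 558 bp wide with 2 mismatches, at 3825 bp from the nearest and 38620 bp from the outermost start. Spry2, described before, had its peak in its single intron, and the other 4 hosts were Gli1, Wnt5a, Smad2 and Bmp7, none of which held a match at up to 1 mismatch.

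The pluripotency list had 1 host of 31 genes (3.23%, against 2.53% of all genes), Lifr, through which LIF acts on ES cells. Its peak was 637 bp wide, lay 3449 bp from the start in intron 2, and was 248969 bp from the next CTCFL peak. Among 60 chromatin genes 3 were hosts (5.0%, against the same 2.53%). The Hdac5 peak, in the gene of a histone deacetylase, was 578 bp wide with 2 mismatches, 8937 bp from the nearest and 20175 bp from the outermost start. The Ehmt2 peak lay in intron 24 and was nearest to the start of Slc44a4, at -2245 bp. The third host was Kdm1a, a histone demethylase gene.

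Of 40 imprinted genes 3 were hosts (7.5%, against 2.53% of all genes). The Peg3 peak (506 bp) lay in intron 1 at 2988 bp from the start and had 1 mismatch. The Slc22a18 peak (454 bp) lay in intron 5 at 5576 bp from the nearest and 6941 bp from the outermost start and had the exact consensus at 29.5 bp from the center. In H13, a signal peptide peptidase gene, the peak (481 bp) lay in intron 2 at -8716 bp from the start of Mcts2, a gene within H13, and its best match had 2 mismatches.

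Of 11 genes that the study lists or tests as CTCFL sites, 6 were hosts (54.5%, against 2.53% of all genes). The list was chosen on these samples and is no independent evidence. The Twf2 peak (663 bp) lay 9036 bp from the start and held 2 matches, the best of them exact and 8.5 bp from the center. The Irg1 peak, in the gene of the enzyme that makes itaconate, was 801 bp wide with 3 mismatches. The wider of 2 peaks in Tctn2, a gene of the ciliary transition zone, was 798 bp with G8A and 86.0% unique windows, 12441 bp from the outermost start, and the remaining hosts were Stra8, Gal3st1 and Rapgef1. The peak counted for Rapgef1 is not the site that the study lists, which lies at the start and is a promoter peak. Whether the Gal3st1 peak is the site that the study tests by ChIP was not checked.

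**Figure D5:**
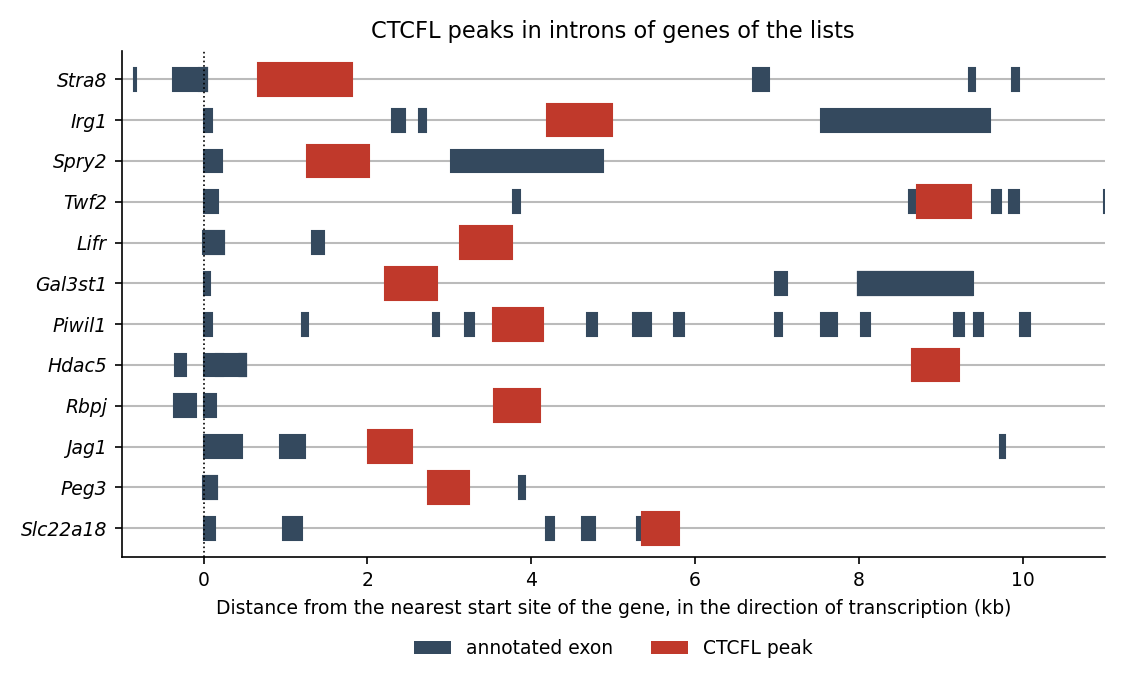
Position of the CTCFL peak (red) and annotated exons (dark) in 12 listed genes, in kb from the nearest start site of the gene along the direction of transcription (horizontal axis, with genes on the vertical axis). The peaks range from Stra8, centered 1238 bp from the start drawn at 0, to Twf2, centered at 9036 bp.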

How the data were processed

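Per the labels and the study's methods, the authors sequenced 36-base ChIP reads, mapped them with ELAND and, for their comparative analysis, with BOWTIE to mm9, keeping unambiguous unique reads and calling peaks with MACS. The deposited list does not say which of these gave it. Its values are peak starts and ends in bp from 1 library, and 0 columns were left unmapped.

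Peaks were assigned by center with GENCODE vM1, and sequence came from the NCBIM37 genome (pysam 0.24.0). The consensus was searched on both strands at up to 1 mismatch. Shares were compared by Fisher's exact test, densities by an exact binomial test and medians by 100000 permutations (scipy 1.17.1, numpy 2.4.6), with Benjamini-Hochberg adjustment per family. The routines were tested on simulated data. RefSeq promoters (build GRCm38) were used by sequence match alone.

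The members, lists and tests were chosen with earlier results of these data known. Genes are named by rule: the 10 widest peaks, the 5 with most matches, hosts of 3 or more, the 15 widest on gene lists, the 3 on either side of each limit, and exact matches within 5 bp of the center. The names of Adamts16, Cacna1i, Fam118a and Rassf8, and of list hosts beyond the 15 widest, were chosen after their values were seen.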

Additional observations from a re-analysis of the deposited data

How the results depend on the processing

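The density ratio, the widths, the base composition and the overall consensus share kept their direction and their side of the threshold under every alternative run, with a density ratio from 1.15 to 2.43. The alternative with at least 90% unique windows limited the peaks but not the territories, so it does not correct the densities for sequence that cannot be placed uniquely. Of 135 alternatives over 16 results, 119 were counted as unchanged. For the number of members, the first intron share and the share of hosts with a promoter peak, no test was run. For these, unchanged meant only a value close to the main one. The strand share among exact matches also counted as unchanged. It was 50.7%, on the other side of 50% from the main 44.1%, and neither was past the threshold. With no mismatch allowed, the consensus share differed from promoter peaks by -2.20 and from deep intronic peaks by 1.45 percentage points, and neither passed the test. With positions 8, 13 and 14 free, a form added for these comparisons after seeing the data, the differences were -1.07 and -1.03, the latter in the opposite direction. The difference from deep intronic peaks was also not past the threshold in the central 200 bp (4.19) and in the wider part of the list, at or above its median width (6.82). Keeping those wide peaks left 284 members and put a promoter peak at 12.2% of hosts. Promoter peaks were limited to wide ones there too, and were found at 7.54% of all protein-coding genes and 9.82% of hosts of deep intronic peaks. The strand share over all matches was past the threshold with wide peaks (41.7%), only protein-coding exons (43.7%) and peaks with at least 90% unique windows (42.9%). With the match nearest the center only it was 46.3%, not past the threshold. With the limit at 5 kb there were 324 members, and position 3 differed from promoters by 17.0 points, not past the threshold. First introns held 64.2% of these members, but the share of first intron in that smaller territory was not computed. The 56.4% given before holds for the limit of 10 kb. The position 3 difference from deep introns reversed at 5 kb (-4.11) and in unique peaks (-0.539). The causes were not tested. Also added after seeing the data were the limit of 20 kb on deep introns and counting only hosts with the nearest start. Masked repeats were not run, since the reference letters carry no masking. No paired analysis was possible because there was 1 library of each kind. The list gives no depth, and peaks were not ranked by reads here.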
